A study of Mus musculus with 6 samples.

Results

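The genes that carry signals from insulin, insulin-like growth factors, prolactin and growth hormone were examined for binding of the transcription factor MafA and for the histone mark H3K4me3 in Min6, a mouse insulinoma line that expresses simian virus large T antigen, secretes insulin and is used as a model of the beta cell. The list held 10 of 21631 protein-coding genes: the receptors Insr, Igf1r, Prlr and Ghr, the adaptors Irs1 and Irs2, and Pik3r1, Akt2, Foxo1 and Socs2. They were listed by name and not by a threshold on measured values. Every peak in a gene body or within 10 kb either side of it was taken, which gave 142 peaks in all: 47 of 33013 in MafA replicate 1, 57 of 42747 in MafA replicate 2, 19 of 16020 in H3K4me3 replicate 1 and 19 of 16904 in H3K4me3 replicate 2. The series used CUT&RUN, in which an antibody held on chromatin in permeabilised cells directs a nuclease that releases the DNA beneath it for sequencing. It held 6 libraries in 3 groups of 2 replicates, all from Min6 with no edit or treatment named in the labels. One group used an antibody to the cells' own MafA, another used H3K4me3 antibody as the positive control, and IgG served as the negative control. Each library came from 500000 cells permeabilised with 0.01% digitonin, and nothing in the labels says whether replicates were separate cultures, so a spread between them may be technical. The IgG libraries were not analysed here.

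Insulin and the insulin-like growth factors bind receptor tyrosine kinases that phosphorylate the IRS adaptors. These recruit PI3-kinase, AKT is activated, and FOXO transcription factors are kept out of the nucleus. Prolactin and growth hormone bind cytokine receptors that work through JAK2 and STAT5, and SOCS proteins made in response shut the signal off. In beta cells the IRS2 branch is known for supporting cell survival, and prolactin receptor signalling for the growth of beta cell mass in pregnancy. MafA itself is a basic leucine zipper protein known for activating the insulin genes, and H3K4me3 marks the starts of active or poised genes.

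Each peak list was called on 1 library. A region here is the union of overlapping peaks found in both replicates of a target, and its fold enrichment is the authors' own ratio of signal to modelled background at the strongest peak of each replicate. A region counts as within 1 kb of a start by its nearer edge. Fragments are the DNA pieces stacked at a summit, recovered from fold enrichment and p-value, and a percentile ranks a region among all regions of its target. Fragments are counted before the scaling of each library and the modelled background after it, so their quotient is not the fold enrichment. The median summit rested on 25 and 46 fragments in MafA replicates 1 and 2, and on 759 and 263 in those of H3K4me3. The cell type label was checked by H3K4me3 within 1 kb of gene starts. The mark was present at 7 of 8 beta cell markers, all but Ins1, against 57.7% of all protein-coding genes. It was found at 1 of 6 markers of other islet cells, Gcg, and at none of the 4 acinar, 2 duct, 2 endothelial and 1 blood markers.

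All 10 genes carried at least 1 MafA region, and 9 of them carried an H3K4me3 region within 1 kb of a start, against 57.7% of all protein-coding genes. Prlr had no H3K4me3 peak in either library, and 66.0% of protein-coding genes had an H3K4me3 region in the gene or within 10 kb. The MafA regions numbered 38 of 25894 and the H3K4me3 regions 17 of 15573. Over all 21631 protein-coding genes, 44.6% had a MafA region in the same window. Among those with H3K4me3 at a start, the share was 61.6%. Because the genes were listed with earlier results of these data known, their count was not tested against that background. The genes are also long. Their windows held 2.75 MafA regions per 100 kb, against 1.49 per 100 kb when the windows of all protein-coding genes were summed, where overlapping windows count a region more than once. For H3K4me3 the order was the other way, 1.23 against 1.56 per 100 kb.

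The regions were spread unevenly. Ghr had 9 MafA regions, Igf1r 8 and Pik3r1 7, so that these 3 genes held most of the 38, and 2.33% of all protein-coding genes had 7 or more. Irs2 had 4, Insr, Irs1, Akt2 and Prlr had 2 each, and Foxo1 and Socs2 had 1 each. Some of these counts rested on requiring both replicates. In replicate 2 alone Ghr had 14 peaks, Pik3r1 11, Prlr 4 and Foxo1 3, and in replicate 1 alone Irs1 had 5 and Foxo1 2. Per length, Irs2 was the densest at 9.04 regions per 100 kb, followed by Pik3r1 at 6.51, while Foxo1 had 0.983 and Prlr 1.04. The Irs2 count fell to 2 under 50% reciprocal overlap, where Pik3r1 kept 5, and to 2 in the gene body alone, where Pik3r1 kept 7. Across the 10 genes the number of regions and the window length had a Spearman correlation of 0.527, given as a description over genes that share the same libraries. Over all protein-coding genes it was 0.417.

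**Figure D1:**
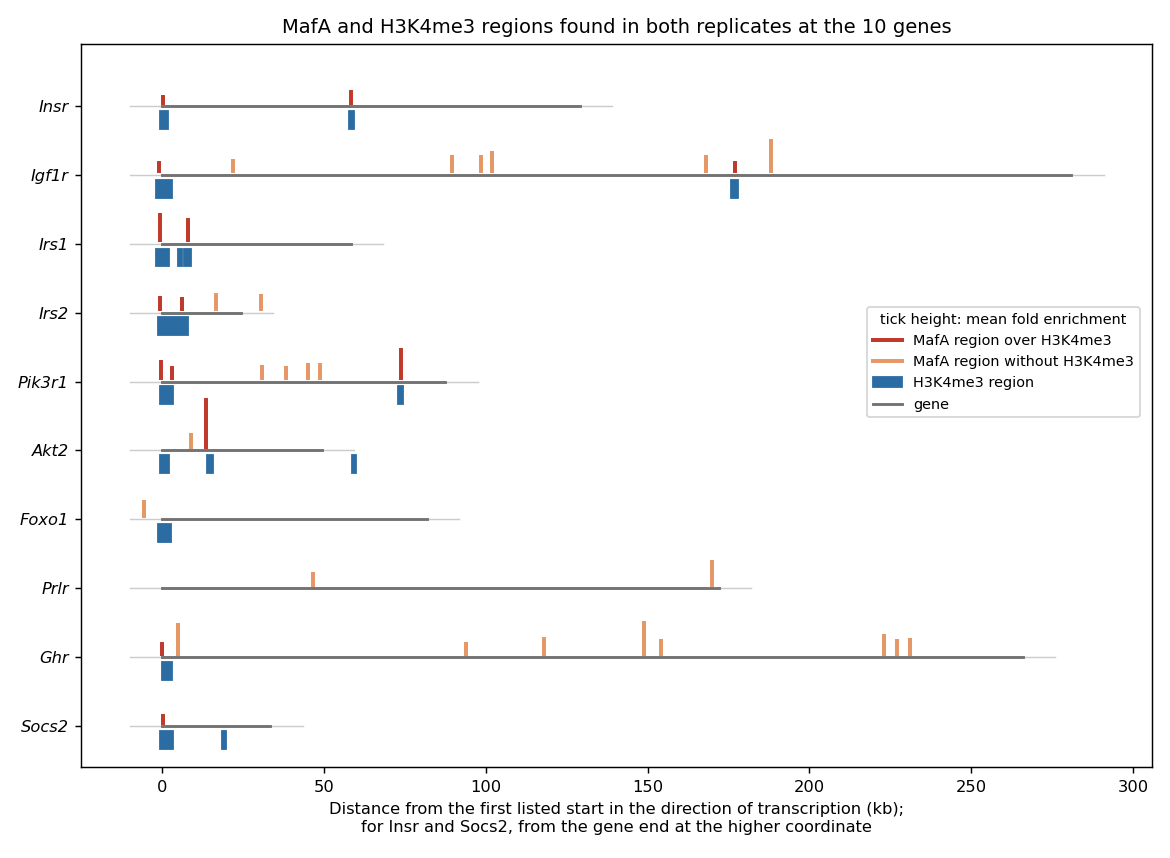
Positions of MafA and H3K4me3 regions found in both replicates, with the distance in kb from the first listed start on the horizontal axis and 1 gene per row. Ticks above each line are MafA regions with height proportional to mean fold enrichment (n = 2), dark red where they overlap H3K4me3, blue blocks below are H3K4me3 regions, the dark line is the gene and the pale line adds 10 kb at each end. Ghr, Igf1r and Pik3r1 carry 9, 8 and 7 MafA regions spread along the gene, and Prlr has no H3K4me3 block.

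Most of these MafA regions were weak among the 25894 of the whole data set. In replicate 1 the median fold enrichment was 5.07, against 5.52 for all MafA regions, and in replicate 2 it was 4.90, against 5.95. By mean fold enrichment, 27 of the 38 lay under the 50th percentile of all MafA regions, and 1 reached the 90th. The values ranged from 2.07 to 15.0 in replicate 1 and from 1.86 to 19.9 in replicate 2. The replicates lay within 1.5 times of each other in 34 regions and farther apart in 4, of which the widest ratio was 2.11. Replicate 2 was the higher in 20 of 38. The strongest region per gene had a median fold enrichment of 8.95, against 6.19 for protein-coding genes with a region, though the highest of many regions in a long gene is not comparable with that of a single one. In 2 of the 10, Insr and Socs2, the strongest region lay under the 20th percentile, against 21.2% of protein-coding genes with a region.

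**Figure D2:**
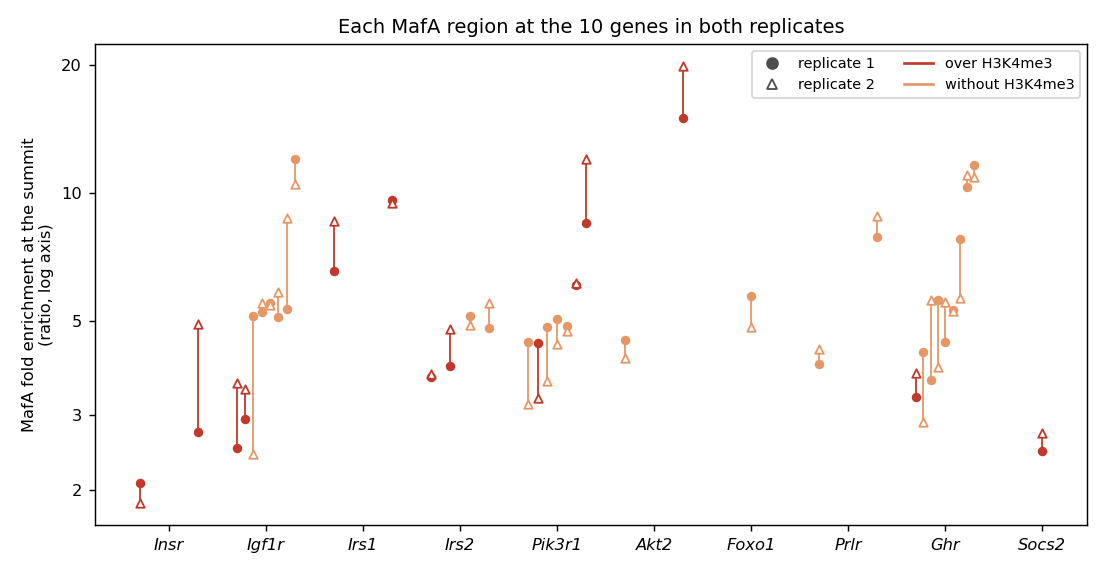
Fold enrichment at the summit (ratio, log axis) of each of the 38 MafA regions, grouped by gene, with replicate 1 as filled circles and replicate 2 as open triangles joined by a line. Dark red regions overlap an H3K4me3 region. The Akt2 region at 15.0 and 19.9 stands above all others, and the lower Insr region at 2.07 and 1.86 lies below all others.

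At the receptors of insulin and insulin-like growth factors, MafA regions were few and weak at Insr and many at Igf1r. Insr, the insulin receptor, lies at chr8:3150922-3279649 (GRCm38, as for all positions here) and had 2 MafA regions, both over H3K4me3. One, at chr8:3279420-3279860, crossed the gene end at the higher coordinate and had fold enrichments of 2.07 and 1.86 in replicates 1 and 2, on 33 and 56 fragments. This was at the 0.0850th percentile of MafA regions by fold enrichment but at the 48.5th by fragments, since the modelled background there was 15.4 and 22. The other lay inside the gene, 58.2 and 58.6 kb from that end, with 2.73 and 4.91. H3K4me3 was strong at the gene end, with 21.0 and 23.8, and also marked the inner site with 13.8 and 16.0. Both Insr MafA regions were lost when a −log10 q of at least 5 was required.

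Igf1r, the receptor for insulin-like growth factor I, had 8 MafA regions along chr7:67952257-68233668. The strongest, at chr7:68139882-68140872, lay 188 kb inside the gene without H3K4me3 and had 12.0 in replicate 1 and 10.5 in replicate 2, a mean of 11.3 ± 1.1 (SD, n = 2). A cluster of regions lay 89.4 to 102 kb from the start. Its members had 5.10 and 5.85, then 5.50 and 5.43, then 5.32 and 8.71 in replicates 1 and 2. The region nearest the start, chr7:67950649-67951762, ended 495 bp before it and had 2.93 and 3.45. It sat within an H3K4me3 region of 4832 bp with 30.2 and 26.3, which by the mean of 28.2 was the strongest H3K4me3 region of the 10 genes. A further H3K4me3 region, 177 kb inside the gene with 8.67 and 11.1, also held a MafA region, with 2.51 and 3.57. Replicates were farthest apart at chr7:67973650-67974501, with 5.12 and 2.43 and summits 735 bp apart, so that mean joins different positions.

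The IRS adaptors, which pass the receptors' signal to PI3-kinase, both carried a MafA region within 1 kb of their start that overlapped H3K4me3. At Irs1 the region chr1:82290831-82294868 covered the start and was the widest MafA region of the 10 genes, at 4038 bp. The strongest peaks of replicates 1 and 2 gave fold enrichments of 9.63 and 9.46, a mean of 9.55, but their summits lay 1699 bp apart, so that mean joins different positions. At the start itself replicate 1 had a further peak, with its summit 18 bp away and a fold enrichment of 7.85 on 139 fragments, beside the replicate 2 summit 15 bp away with 9.46. The strongest peaks held 110 and 341 fragments, the most of any region here, which put it at the 97.1st percentile by fragments and the 83.2nd by fold enrichment. The other region, chr1:82282896-82284291, lay 7.83 and 7.85 kb inside the gene over its own H3K4me3 region, with 6.53 and 8.60.

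Irs2 was marked by an H3K4me3 region of 9325 bp, chr8:11000972-11010296, the 17th widest of 15573. Replicates 1 and 2 gave fold enrichments of 19.7 and 16.8. Within it lay 2 of the 4 MafA regions at this gene. One had its nearer edge 137 bp before the start and its summits 949 and 363 bp before it, with 3.9 and 4.78. The other had its summits 6.12 and 6.07 kb inside the gene, with 3.68 and 3.75. The region before the start also overlapped the long non-coding RNA gene 9530052E02Rik, and which of these genes it belongs to cannot be told apart. The remaining regions had no H3K4me3 and lay 16.5 and 16.8 kb from the start, with 4.81 and 5.50, and beyond the far gene end with 5.12 and 4.89. Replicate summits in the region beyond the far gene end lay 705 bp apart. All 4 lay under the 40th percentile by fold enrichment, and Irs2 kept none among the 16020 peaks of each library strongest by that measure. The region before the start held 96 and 229 fragments. It was at the 93.4th percentile by fragments and the 81.8th by −log10 q. With 50 kb either side, a region with a mean of 12.9 fell into the Irs2 window.

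Downstream of the receptors, Pik3r1 and Akt2 each held a strong MafA region close to an inner start of the gene. Pik3r1 encodes the regulatory subunits of PI3-kinase and has 2 listed starts. At the outer start the region chr13:101767891-101768989 had 6.05 in replicate 1 and 6.14 in replicate 2, within an H3K4me3 region with 26.2 and 22.5. The strongest Pik3r1 region, chr13:101693878-101696491, lay 1.85 and 1.96 kb before the inner start and had 8.5 and 12.0, a mean of 10.3 ± 2.5 (SD, n = 2), over an H3K4me3 region with 10.6 and 9.17. Under 50% reciprocal overlap that region was not retained and the highest value at Pik3r1 was 6.09. The other 5 regions lay between, with means from 3.83 to 4.8, and 4 of them had no H3K4me3.

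Akt2, a kinase of the insulin response, carried the strongest MafA region of the 10 genes. At chr7:27604209-27605762, inside the gene, replicates 1 and 2 gave fold enrichments of 15.0 and 19.9, a mean of 17.4 ± 3.47 (SD, n = 2) and the 96.4th percentile, on 77 and 185 fragments. The summits lay 5 bp apart, 805 and 800 bp before the third of 4 listed starts and 13.4 kb from the first. Both replicates at this region were above both replicates at every other region of the 10 genes. It was the exception among the 14 MafA regions over H3K4me3, since both its summits lay outside the H3K4me3 region, which had 5.18 and 5.51. In the other 13 regions both summits lay inside. A weaker H3K4me3 peak under the MafA summits was called in replicate 1 alone, with 3.05. At the first start of Akt2, H3K4me3 reached 21.8 and 17.5 and the only MafA peak was in replicate 2, with 2.88. The second MafA region of Akt2, 3.52 and 3.30 kb past the second start, had 4.49 and 4.08 and no H3K4me3.

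Foxo1, the transcription factor that AKT restrains, was the only one of the 9 marked genes without a MafA region within 1 kb of a start. Its H3K4me3 region covered the start with 34.1 in replicate 1 and 20.4 in replicate 2. Its MafA region, chr3:52262360-52263066, lay 5.70 and 5.89 kb before the start with 5.72 and 4.82, on 18 and 26 fragments. It was lost under 50% reciprocal overlap, in a window of the gene body alone or with 2 kb either side, and among the strongest peaks. A peak at the start itself was called in replicate 2 alone, with a fold enrichment of 1.90 on 118 fragments over a background of 46.0.

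The cytokine receptors differed in their chromatin mark. Prlr, the prolactin receptor at chr15:10177238-10349190, had MafA regions but no H3K4me3. In the whole data set, 995 of the 7362 protein-coding genes with no H3K4me3 region in the gene or within 10 kb had a MafA region, 13.5%. One Prlr region, chr15:10222709-10224116, covered the second of 3 listed starts, with summits 98 and 47 bp from it. Replicates 1 and 2 gave 3.96 and 4.28, on 28 and 56 fragments, at the 19.3rd percentile. The stronger one, chr15:10346728-10348159, lay at the far end of the gene with 7.86 and 8.83, a mean of 8.35 ± 0.688 (SD, n = 2) and the 77.3rd percentile. A peak with 7.91 on 38 fragments, between the first and second starts, was called in replicate 2 alone.

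Ghr, the growth hormone receptor at chr15:3317755-3583352, had the most MafA regions, 9, and 1 H3K4me3 region, which covered both listed starts with 24.7 in replicate 1 and 22.9 in replicate 2. The MafA region over the first start, chr15:3582928-3583517, had summits 24 and 7 bp from it. Its fold enrichment was 3.30 and 3.76, at the 9.89th percentile, while its 88 and 195 fragments put it at the 91.0th. The region chr15:3578123-3579719, 3.25 kb inside the gene from the second start and outside the mark, reached 10.3 and 11.0, a mean of 10.6 ± 0.459 (SD, n = 2). At chr15:3434230-3435735, 147 kb from a start, values were 11.6 and 10.9. The remaining 6 Ghr regions had means from 3.55 to 6.73 and no H3K4me3, and 3 of these also lay in the long non-coding RNA gene Gm41254.

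Socs2, the SOCS protein known for restraining growth hormone signalling, had strong H3K4me3 and weak MafA enrichment at its gene end. H3K4me3 at its gene end reached 28.3 in replicate 1 and 25.2 in replicate 2 over 3874 bp. The only MafA region, chr10:95416992-95417344 inside that mark, had 2.46 and 2.72, the 1.66th percentile. Its fragments, 67 and 119, were at the 80.1st percentile, and the modelled background was 26.7 and 32.0. That H3K4me3 region also overlapped the non-coding genes Gm33230 and 5730420D15Rik.

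A MafA region lay within 1 kb of a start at 9 of the 10 genes, all but Foxo1, and at 8 of the 9 marked by H3K4me3 there. The background was 20.1% of all protein-coding genes and 33.4% of those marked. For Insr and Socs2 the distance was taken to either gene end. Start positions for the other 8 genes, 15 in all, came from the RefSeq promoter table of GRCm38.p6, and 6 of these promoters overlapped a MafA region by at least 1 bp. Shown are the 250 bases before 4 of them: the Prlr start covered by MafA with no H3K4me3, the Akt2 start beside the strongest region, the Irs1 start with the most fragments, and the Ghr start with both summits within 24 bp. Each reads 5′ to 3′ on the gene's strand, and capitals mark any match to the motifs searched.
Prlr, chr15:10223656-10223905, plus strand: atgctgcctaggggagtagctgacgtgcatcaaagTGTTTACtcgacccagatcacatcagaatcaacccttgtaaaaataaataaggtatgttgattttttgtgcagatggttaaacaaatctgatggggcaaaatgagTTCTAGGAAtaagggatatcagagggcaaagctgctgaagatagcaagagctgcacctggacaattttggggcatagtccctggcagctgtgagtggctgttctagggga
Akt2, chr7:27605547-27605796, plus strand: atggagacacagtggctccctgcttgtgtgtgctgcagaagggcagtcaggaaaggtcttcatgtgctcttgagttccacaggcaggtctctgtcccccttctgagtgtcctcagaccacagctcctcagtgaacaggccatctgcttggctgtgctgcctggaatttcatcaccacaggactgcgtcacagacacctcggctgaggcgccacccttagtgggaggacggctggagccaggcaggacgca
Irs1, chr1:82291440-82291689, minus strand: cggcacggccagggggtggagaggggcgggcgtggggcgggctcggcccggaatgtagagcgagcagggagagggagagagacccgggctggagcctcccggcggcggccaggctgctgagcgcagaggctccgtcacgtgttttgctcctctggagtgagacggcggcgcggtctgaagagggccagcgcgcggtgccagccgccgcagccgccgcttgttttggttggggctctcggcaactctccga
Ghr, chr15:3583353-3583602, minus strand: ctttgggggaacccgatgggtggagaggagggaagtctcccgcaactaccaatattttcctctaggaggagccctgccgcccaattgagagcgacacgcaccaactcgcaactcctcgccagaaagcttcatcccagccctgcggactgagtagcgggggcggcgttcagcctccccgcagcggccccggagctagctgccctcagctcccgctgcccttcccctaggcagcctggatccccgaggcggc
These windows differed in base composition. Of the 250 bases, 44.8% were G or C at Prlr with 2 CpG, and 58.8% at Akt2 with 5. At Ghr the values were 65.6% with 17 CpG and at Irs1 72.4% with 28, and the Irs2 and outer Pik3r1 starts had 72.8% and 76.4% with 34 and 30. The H3K4me3 region over the last 4 had means of 17.0 to 24.4, that over the Akt2 start shown had 5.34, and Prlr had none.

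Motifs were searched on both strands in the full promoter window of 300 bases. The MAF recognition element core TGCTGAC was found in none of the 6 promoters that overlapped a MafA region, nor in the other 9 of these genes. Among all 32851 promoters in the table it occurred in 4.67%, and in 6.43% of the 4420 that overlapped a MafA region. The full palindromic T-MARE was found in 1 of all promoters and C-MARE in none. The STAT5 type TTCNNNGAA was found at the Prlr start shown and at the first Akt2 start, against 8.30% of all promoters. The FOXO type GTAAACA was found at the same Prlr start, against 3.65%. These matches describe letters only.

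Over H3K4me3 the order of MafA strength depended on the measure. Overlap with H3K4me3 was found for 14 of the 38, 36.8% (95% Wilson interval 23.4 to 52.7%, counting error only), against 30.5% of the MafA regions in or within 10 kb of protein-coding genes. For these the medians of fold enrichment in replicates 1 and 2 were 3.79 and 4.27, and for the 24 without the mark 5.12 and 5.36. Fragments ran the other way, with medians of 72 and 175 against 18.5 and 35. Fold enrichment is a ratio to the modelled background, which had medians of 13.3 and 21.8 against 2.54 and 4.0. Why the background was higher over H3K4me3 was not tested. The strong Akt2, Irs1 and inner Pik3r1 regions were high by both measures, whereas the start regions of Socs2 and Ghr were at the 1.66th and 9.89th percentiles by fold enrichment and the 80.1st and 91.0th by fragments. The Insr start region was low by fold enrichment and by −log10 q, at the 0.0850th and 0.0309th percentiles, and at the 48.5th by fragments. Conversely, 12 of the 17 H3K4me3 regions overlapped a MafA region, against 37.4% of all H3K4me3 regions.

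**Figure D3:**
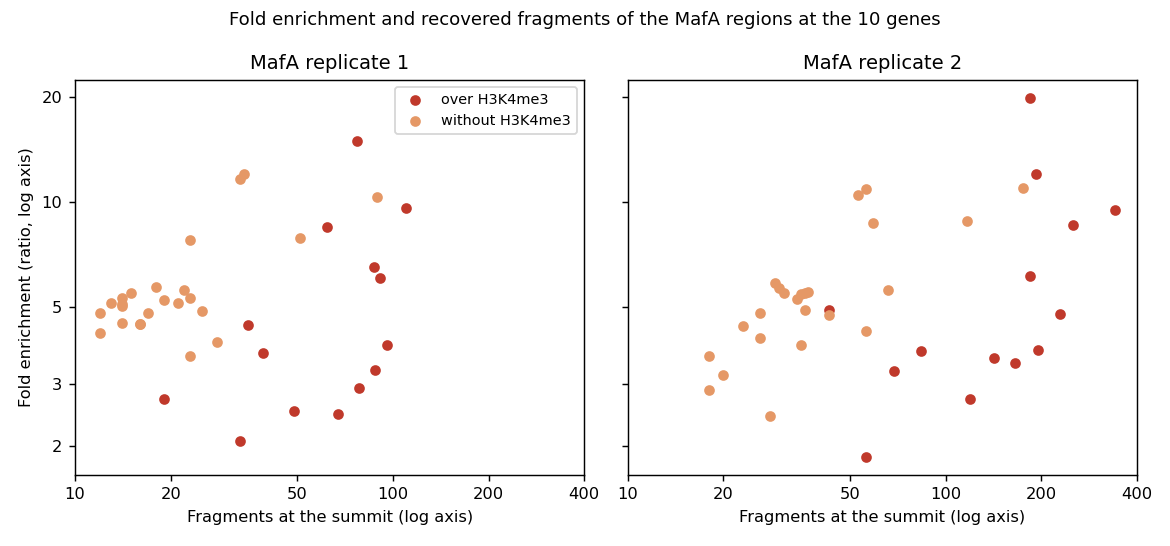
Fold enrichment (ratio, log axis) against fragments recovered at the summit (log axis) for the 38 MafA regions, with 1 panel per replicate. Regions over H3K4me3, in dark red, mostly lie to the right with medians of 72 and 175 fragments in replicates 1 and 2, and those without it, in orange, mostly lie to the left with 18.5 and 35.

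H3K4me3 itself was strongest at the gene starts. The 10 regions within 1 kb of a start had a median fold enrichment of 23.1 (range 5.34 to 28.2, means of 2 replicates), and the 7 farther away had 9.89 (4.76 to 15.6). Of the former 8 overlapped a MafA region and of the latter 4. The lowest start region was that at the inner Akt2 starts, and one of those away from starts lay beyond Akt2 over the non-coding gene Gm38973.

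MafA peaks at these genes were narrower than H3K4me3 peaks and lay less often near starts. The median peak width was 540 bp in MafA replicate 1 and 577 bp in replicate 2, against 2060 and 2087 bp for H3K4me3. The difference was -1515 bp between 558 ± 26.2 and 2074 ± 19.1 (SD, n = 2 libraries each), larger than the spread between replicates. Summits within 1 kb of a start made up 17.0% and 19.3% of MafA peaks and 47.4% and 42.1% of H3K4me3 peaks, a difference of -26.6 percentage points between 18.2 ± 1.61 and 44.7 ± 3.72 (SD, n = 2 libraries each). The exact permutation test gave p = 0.33 for each (two-sided, Benjamini-Hochberg adjusted p = 0.33 over 2 tests). With 2 libraries in each group no smaller value is possible, so neither could reach 0.05.

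Peaks found in a single library were also counted. Of the MafA peaks at these genes, 40 of 47 in replicate 1 (85.1%) and 39 of 57 in replicate 2 (68.4%) overlapped a peak of the other replicate, against 81.2% and 60.8% of all MafA peaks. The Wilson intervals of the former, 72.3 to 92.6% and 55.5 to 79.0%, cover counting error only and include the latter. They treat peaks of the same gene and library as independent, so they do not test for a difference. The unmatched peaks were weaker, with medians of 4.05 in 7 peaks and 3.9 in 18 peaks, against 5.07 and 4.89 for matched ones. Ghr held 5 of the unmatched peaks of replicate 2, Pik3r1 4 and Igf1r 3. At Insr, Igf1r, Pik3r1, Ghr and Socs2 every MafA peak of replicate 1 was matched. For H3K4me3, 18 of 19 peaks in replicate 1 and 17 of 19 in replicate 2 were matched, against 97.7% and 93.1% of all H3K4me3 peaks. One of the unmatched lay at Ghr, chr15:3356479-3356719 with 5.27, under a MafA region, and the others at Akt2.

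Other genes of these pathways were then counted with a list of 65. Of these 48, 73.8%, had a MafA region in the same window, against 44.6% of all protein-coding genes. H3K4me3 lay within 1 kb of a start of 54, 83.1%, against 57.7% of all protein-coding genes. The same background shares apply to the group counts below, which were not tested. Of the 54 marked genes 43 had a MafA region, 79.6%, against 61.6% of all marked protein-coding genes. The strongest region per gene reached the 90th percentile in 12 of the 48, 25%, against 15.4% of protein-coding genes with a region. These shares were not matched for window length, and the highest of many regions in a long gene is not comparable with that of a single one. Among the 10 genes above, Akt2 alone reached the 90th percentile by fold enrichment. By −log10 q the regions strongest by fold enrichment at Irs1, Akt2 and Pik3r1 did so, at 95.6, 94.7 and 90.7. By fragments that of Irs1 did, at 97.1, with Akt2 at 89.4. Other regions of these genes also passed the 90th percentile by these measures. By −log10 q they were the second Irs1 region and chr15:3578123-3579719 at Ghr, both at 91.4. By fragments they were the second Irs1 region at 94.1 and the region before the Irs2 start at 93.4. The first Ghr start and the outer Pik3r1 start followed at 91.0 and 90.5.

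Ligands, binding proteins and related receptors had a region at 8 of 11 genes. The highest was at Insrr, the insulin receptor-related receptor, with 22.2 in replicate 1 and 19.0 in replicate 2, inside the gene. At Igf2, the gene of insulin-like growth factor II, the top region had 14.9 and 20.8 and lay outside the gene, over the neighbouring insulin gene Ins2. Of the adaptors 7 of 10 had a region, 1 each, and the highest values were low, 4.46 and 6.32 at Sh2b2 and 4.32 and 4.4 at Grb2. Neither Irs3 nor Irs4 had a MafA region or an H3K4me3 region in its window.

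The PI3-kinase, AKT and mTOR group had a region at 14 of 19 genes. Mtor, the kinase that senses nutrients, had 18.6 in replicate 1 and 28.5 in replicate 2, and Rptor, its partner in mTOR complex 1, had 17.0 and 20.3 among 11 regions. Akt1 had 3 regions, the highest with 5.62 and 6.91, under the Akt2 values in each replicate. Of the other FOXO genes, Foxo3 had the strongest region on the list, with 31.4 and 35.2 inside the gene and the 99.8th percentile, Foxo6 had 13.7 and 10.9, and Foxo4 had none. The Foxo1 region at 5.72 and 4.82 lay under those of Foxo3 and Foxo6 in both replicates.

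On the side of prolactin and growth hormone, 5 of 6 JAK and STAT genes had a region, all but Stat5a, and none had one within 1 kb of a start. H3K4me3 marked a start of all 6, and 33.4% of protein-coding genes so marked had a MafA region there. Jak1, a kinase of cytokine receptors, had 8.12 in replicate 1 and 12.8 in replicate 2. Of the SOCS genes and phosphatases 7 of 10 had a region. Ptpn11, the phosphatase SHP2, had 18.8 and 17.5 inside the gene, and Socs3 had 15.4 and 15.2 over H3K4me3 but outside the gene. Both were well above Socs2 at 2.46 and 2.72, where the region crossed the gene end. Cish, the SOCS relative known as a STAT5 target, had a single weak region with 2.19 and 2.57. The growth hormone gene Gh had a region outside the gene with 16.1 and 14.0 and no H3K4me3, and Prl had none. All 4 genes known to respond to prolactin in beta cells had a region. Tph1, an enzyme of serotonin synthesis, had 11.1 and 12.4 outside the gene, and Tph2, its relative, had 9.47 and 9.36 inside the gene. Neither had H3K4me3 within 1 kb of a start, as was the case for Prlr.

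**Figure D4:**
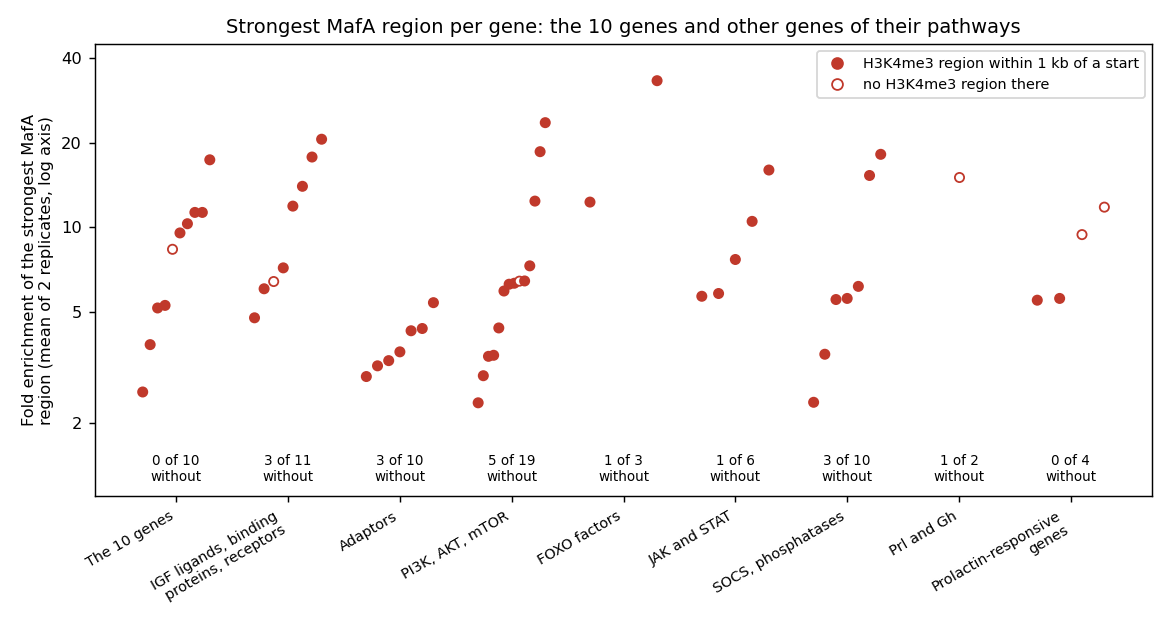
Fold enrichment of the strongest MafA region per gene (mean of 2 replicates, log axis) for the 10 genes and for the 65 other pathway genes by group. Filled points carry an H3K4me3 region within 1 kb of a start, and the counts at the bottom are genes without a MafA region. The highest point, at 33.3, is Foxo3, and the adaptors all lie at or below 5.39.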

How the data were processed

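CUT&RUN peak lists of 2 MafA and 2 H3K4me3 libraries were analysed. Peaks were called with MACS2 on build GRCm38 (mm10), per the submitters' processing notes, with 1 list for each library. The aligner, MACS2 version, duplicate handling and control library were not given in the sources used here. In the deposited lists the fold enrichment is a ratio, summit pileup over modelled background. The deposited −log10 p-values and −log10 q-values refer to the summit, and the lowest −log10 q was 2.00. The deposited score follows the q-value and was not used.

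Regions joined peaks of both replicates that shared at least 1 bp. Gene positions and starts came from RefSeq tables of GRCm38.p6. The promoter table held 8 of the 10 genes, with 15 starts, and gene ends stood in for starts elsewhere. The tables give no exons. Fragments were solved from fold = (pileup + 1) / (background + 1) and a Poisson tail for 100% of peaks, with scaling factors of 0.415 and 0.997 for H3K4me3 and 1.00 and 0.746 for MafA. Intervals are 95% Wilson intervals. Routines ran in Python 3.11.15 with scipy 1.17.1, pandas 2.3.3, numpy 2.4.6, statsmodels 0.14.6 and matplotlib 3.10.9 and were tested on simulated data. Genes, lists and tests were chosen with earlier results of these data known. All 10 genes are described. Of the pathway list, the 2 genes with the highest mean fold enrichment in each group are named, except where a gene is not reported here, and Akt1, Foxo4, Cish, Stat5a, Irs3, Irs4 and Prl were added after their values were seen. Alternatives tried were stricter q-values, the same number of strongest peaks from each library, 50% reciprocal overlap, merging within 1 kb, other windows, other measures of strength, blocking on replicate, and dropping each library in turn. Motifs at MafA summits were not searched, because genome sequence was not used here.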

Additional observations from a re-analysis of the deposited data

How the results depend on the processing

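Taking the 16020 strongest peaks of each library by fold enrichment moved the counts most: 11 MafA regions remained at 6 of the 10 genes, 26 of the other pathway genes had a region, and the median of the strongest region per gene was 10.8. Under that setting 23.2% of protein-coding genes had a MafA region. With 50 kb either side, 26 H3K4me3 regions were counted and that median was 10.7. Fewer peaks enter under the former and longer windows under the latter. Leaving out each MafA library, so that regions were the peaks of the other, gave 47 to 57 MafA regions, 10 genes with a region, 50 to 55 pathway genes and a median of 8.18 to 9.15. The MafA regions numbered 47 with 50 kb either side and 28 to 38 under the remaining settings. The share over H3K4me3 stayed between 33.3% and 45.5%. The differences in width and in summits near starts kept their direction throughout, from -2114 to -1210 bp and from -30.7 to -15.8 points. With the replicate number as a block they were -1515 bp and -26.6 points (exact permutation p = 0.5, the smallest possible), and no label states that libraries with the same number belong together. Insr, Irs2, Foxo1 and Socs2 lost every region among the strongest peaks, Insr also at a −log10 q of at least 5, and Foxo1 under 50% reciprocal overlap and the narrower windows. Of 62 values for the strongest region per gene under settings other than leaving out a library, 56 moved by less than the spread between replicates. Genes left without a region gave no value. Filters drop weaker peaks first, merging keeps the strongest value and windows leave inner regions in place, so most of these values could hardly move. The number of regions per gene moved by over 1.5 times in 19 of 70 such cases and in 6 of 20 when a MafA library was left out. The percentile of the strongest region moved beyond that spread in 16 of 20 cases under another measure of strength. Ranked by fragments, the regions strongest by fold enrichment at Igf1r and Ghr fell to the 47.2nd and 48.5th percentiles and that of Socs2 rose to the 80.1st. Other regions at Igf1r and Ghr ranked higher by fragments, up to the 87.8th and 91.0th percentiles.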
